A study of Mus musculus with 16 samples.

Results

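The data compared here are the lungs of adult mice that had breathed filtered air before birth and were then exposed, as adults, to second-hand smoke (group AS), with those of mice kept in filtered air at both times (group AA). The members are all arrays that the labels place in these groups, 8 of the 16 arrays of the series. All mice were male Balb/c, an inbred albino strain, and the left lung was taken at 15 weeks of age. Smoke was sidestream smoke, the smoke that leaves the burning end of a cigarette, with 10 mg of particles per m3 of air, breathed 5 hours daily, 7 days of the week. The labels give neither the number of weeks of adult exposure nor the time between the last exposure and death. Each array holds RNA of the whole left lung of what the labels call a separate animal, read by short oligonucleotide probe sets on a log2 scale, and a gene can have several probe sets. In the series, 2 further groups had received smoke before birth, with air (SA) or smoke (SS) as adults; they entered the fit as 1 pooled estimate of the spread and the comparison near the end.

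Inhaled smoke reaches the airway epithelium, the alveolar wall with its dense capillary bed, and the resident macrophages. Cells that meet a stimulus first switch on immediate early genes, mostly transcription factors of the AP-1, Egr and Nr4a families, whose mRNAs appear within minutes and decay quickly. A next layer of genes then brakes the response: phosphatases and Sprouty proteins that quench MAP kinase signalling, and RNA-binding proteins that destroy short-lived mRNAs.

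Some arrays stood apart. AS replicates 3 and 4 differed from each other by hardly more than technical noise, as did SS replicates 1 and 2, so the mean of each pair stands for 1 sample; 4 AA and 3 AS samples remained, and 14 in the fit. The averaged AS pair is written AS3/4. It lay apart from the other AS samples: over the 3000 least variable bright probe sets it differed from AS1 and AS2 by a root mean square of 0.207 to 0.257, against 0.073 to 0.132 for the 18 other pairs of different samples within groups. On the first principal component, which held 25.4% of the variance, AS3/4 stood at 41.9, AS1 at 20.6 and AS2 at 20, and the AA samples from -19.7 to -2.5. Its arrays also read 12.59 and 12.63 on the 3′ control probe set of Gapdh, against 12.2 to 12.27 in AA and 12.19 in AS1 and AS2, and the actin 3′ minus 5′ difference was 0.17 to 0.21 against 0.28 to 0.41 in the other AA and AS arrays. The part of these properties in the results was not tested, and values are therefore given by sample. Of the lung markers, 2 lay close to the highest value in the data (15.11) in all 7 samples. Sftpc of alveolar type 2 cells lay between 15.06 and 15.10 and Scgb1a1 of club cells between 14.92 and 14.98. Other lung markers were dimmer or less even. Marco of alveolar macrophages lay between 5.10 and 6.13 and Foxj1 of ciliated cells between 8.48 and 9.04. Sftpb of alveolar type 2 cells read 14.24 in AS3/4 against 13.62 to 13.86 in the other samples.

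Across the whole table, 699 of 45037 probe sets (1.55%) passed an adjusted p of 0.05 in AS against AA (limma, Benjamini-Hochberg), 266 higher and 433 lower. To keep to 1 value per gene, each of the 18193 named genes was then read at its brightest probe set, the one with the highest mean over all 14 samples. At that probe set 108 genes rose (0.594%) and 96 fell (0.528%), and in all but 2 of these 204 genes the AA and AS samples did not overlap. Over all 18193 genes, every AS sample lay above every AA sample in 8.96% and below in 7.6%. The number of genes called was 81 without AA1, 47 without AA2, 88 without AA4, 97 without AS3/4, 130 without SA2, 103 without SS1 and SS2, and 114 without SS3. Of the 204 genes, 36 (24 higher, 12 lower) passed in every one of the 14 fits that each left out 1 sample, and 66 passed without AS3/4. In a fit of these 7 samples alone, 12 passed, among them Apold1, Csrnp1, Depp1, Rasd1, Spry4, Ppp1r15a, Klf2, C2cd4b, Dusp6 and Cebpd higher, and Kantr, a long non-coding RNA, lower. Every gene said to have risen or fallen below did so at its brightest probe set unless a dimmer one is named. Counts for gene lists below stand beside the shares over all genes, 0.594% higher and 0.528% lower. In whole lung, a change in the number of cells of a type and a change in the RNA of each cell cannot be told apart.

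The largest rise was that of Apold1, which endothelial cells switch on early after a stimulus. Apold1, at its only probe set, read 6.62, 6.59, 7.71 and 6.80 in AA1 to AA4 and 9.64, 10.62 and 10.08 in AS1, AS2 and AS3/4. Every AS sample lay above every AA sample, and AA3 was the highest of the AA samples. The log2 difference was 3.18 ± 0.37 (limma, adjusted p = 0.00128), a 9.07-fold rise, and it was 3.20 without AS3/4. Csrnp1, a nuclear protein induced by growth and stress signals, read 8.93, 9.12, 9.72 and 9.20 in AA1 to AA4 and 10.90, 11.11 and 10.83 in AS1, AS2 and AS3/4. The AS samples lay within 0.29 log2 units of each other, and the rise was 1.70 ± 0.21 (adjusted p = 0.00213); a dimmer probe set of Csrnp1 did not pass (0.18). Depp1, a regulator of autophagy downstream of FoxO factors, read 11.04, 11.04, 10.80 and 10.73 in AA1 to AA4 and 12.31, 12.40 and 12.62 in AS1, AS2 and AS3/4. Both of its probe sets rose, by 1.54 ± 0.16 at the brightest and 1.79 ± 0.19 at the other. Rasd1, a Ras-like protein first found as induced by dexamethasone, read 7.24, 6.98, 7.17 and 6.87 in AA1 to AA4 and 8.50, 8.38 and 8.29 in AS1, AS2 and AS3/4, a rise of 1.33 ± 0.18 (adjusted p = 0.00321) in which the AS samples spanned 0.21 log2 units.

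**Figure D1:**
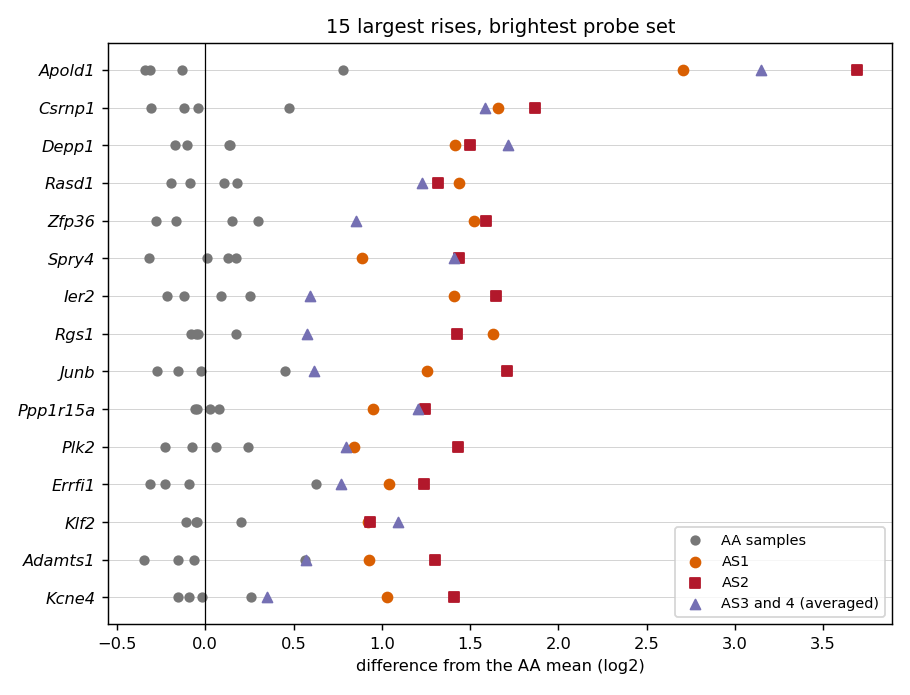
Difference of each sample from the mean of the 4 AA samples (x axis, log2) for the 15 genes with the largest rises at their brightest probe set among those without overlap (y axis); grey points are AA samples, coloured symbols the AS samples. No AS sample overlaps an AA sample, and the averaged AS3 and 4 is the lowest AS sample in 10 of the 15 genes.

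Of the transcription factors of the AP-1 family, 3 of 12 rose and none fell, against 0.594% and 0.528% over all genes. The median difference was 0.52 against 0.02 over all genes. Without AS3/4, 2 of the 12 rose. Junb read 8.57, 9.18, 8.71 and 8.46 in AA1 to AA4 and 9.99, 10.44 and 9.34 in AS1, AS2 and AS3/4. The groups did not overlap, AS3/4 came closest to AA2, and the rise was 1.19 ± 0.20 (adjusted p = 0.0128). Jun, a core AP-1 subunit, read 12.15, 12.25, 12.29 and 12.10 in AA1 to AA4 and 12.64, 12.84 and 12.70 in AS1, AS2 and AS3/4 and rose by 0.53 ± 0.08 (adjusted p = 0.00506); its second probe set rose by 0.54. Maff, a small Maf protein that pairs with NRF2 and other leucine zipper factors, rose by 1.04 ± 0.23 (adjusted p = 0.0374), but AS1 at 9.09 lay below AA3 at 9.14. Fos did not pass: it read 13.12, 13.09, 12.62 and 12.28 in AA1 to AA4 and 14.02, 14.14 and 12.09 in AS1, AS2 and AS3/4, high in AS1 and AS2 while AS3/4 was lower than every AA sample. Atf3 (1.60, adjusted p = 0.0837), Fosb (1.40, 0.144) and Fosl1 (0.45, 0.115) did not pass either.

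Among 18 Egr, Nr4a, Ier and related early genes, Csrnp1, Ier2 and Arc rose and none fell. Over all genes 0.594% rose and 0.528% fell. The list median was 0.85. Ier2, an early nuclear protein, read 10.84, 11.01, 10.63 and 10.54 in AA1 to AA4 and 12.16, 12.40 and 11.35 in AS1, AS2 and AS3/4, a rise of 1.22 ± 0.20 (adjusted p = 0.00936) without overlap. Arc, best known as a cytoskeletal protein of active neurons, was dim and rose by 0.57 ± 0.13 (adjusted p = 0.0499), and it passed in 1 of the 14 fits without 1 sample. Egr3 and Nr4a1 had larger differences than Csrnp1 and did not pass, nor did Egr1. Egr3 read 7.56, 8.30, 9.79 and 7.82 in AA1 to AA4 and 10.36, 11.78 and 8.48 in AS1, AS2 and AS3/4 (1.83, adjusted p = 0.129). At its dimmer probe set Egr3 was called higher (0.31). Nr4a1, an orphan nuclear receptor, read 10.43, 11.39, 12.44 and 10.71 in AA1 to AA4 and 13.08, 13.75 and 12.06 in AS1, AS2 and AS3/4 (1.72, adjusted p = 0.0791). Egr1 read 12.49, 12.84, 12.99 and 12.05 in AA1 to AA4 and 13.997, 14.15 and 12.28 in AS1, AS2 and AS3/4 (0.88, adjusted p = 0.233). In all 3 genes AS1 and AS2 were above every AA sample and AS3/4 lay within the AA range. The list medians by sample, relative to the AA mean, were 1.18 in AS1, 1.55 in AS2 and 0.12 in AS3/4. Without AS3/4, 6 of the 18 passed and the median was 1.41. AA3 was also high for Egr3, for Nr4a3 at 11.28 and for Atf3 at 10.73, between the other AA samples and AS2.

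**Figure D2:**
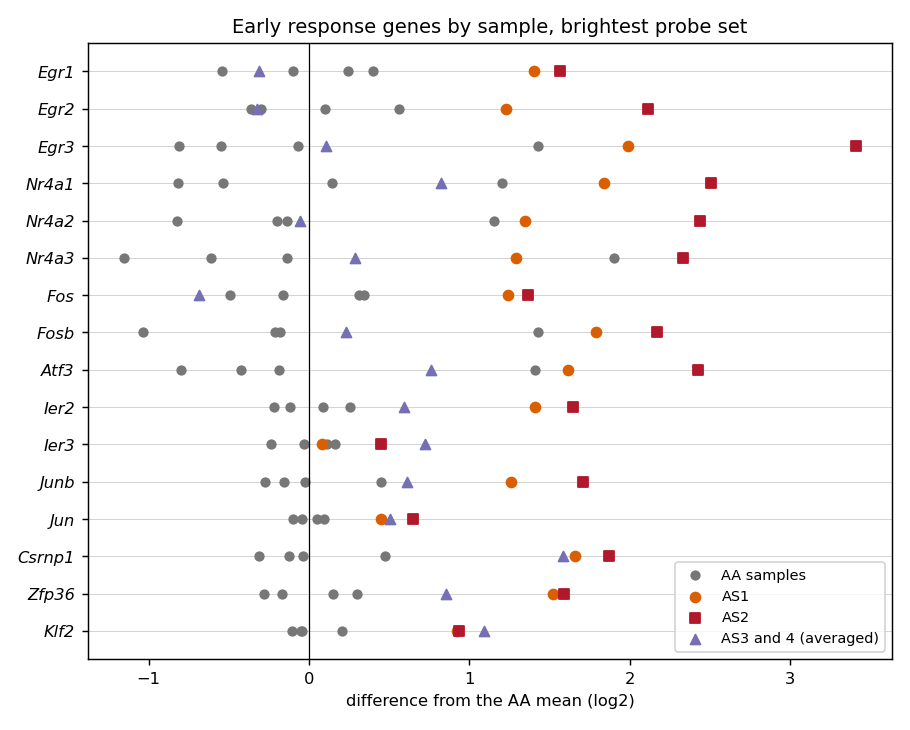
Difference of each sample from the AA mean (x axis, log2) for 16 early response genes at their brightest probe set (y axis); grey points are AA samples, coloured symbols the AS samples. In no gene from Egr1 to Atf3 does the averaged AS3 and 4 lie above all AA samples, while for Csrnp1, Zfp36, Jun and Klf2 all AS samples lie above the AA range.

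The brakes on MAP kinase signalling gave the largest count of any pathway or cell type list, 6 of 16 higher and none lower. Over all genes 0.594% rose and 0.528% fell. The lists were chosen with earlier results of these data known, so the ranking is no independent support. The list median was 0.22. Without AS3/4, 4 rose, the median was 0.27 and the Egr, Nr4a and Ier list had the larger count, 6. Dual-specificity phosphatases remove phosphate from MAP kinases. Dusp6, which acts on ERK and is itself induced by it, read 12.34, 12.41, 12.41 and 12.38 in AA1 to AA4 and 12.82, 12.87 and 12.92 in AS1, AS2 and AS3/4. The AA samples spanned 0.07 log2 units and the AS samples 0.10, and the rise of 0.48 ± 0.08 (adjusted p = 0.00971) also passed in the fit of the 7 samples alone. Dusp1, the phosphatase of p38 and JNK that glucocorticoids also induce, read 13.41, 13.50, 13.06 and 13.32 in AA1 to AA4 and 14.23, 14.21 and 13.72 in AS1, AS2 and AS3/4, a rise of 0.73 ± 0.14 (adjusted p = 0.0259). Dusp2, a nuclear phosphatase of leukocytes, read 6.98, 6.75, 7.14 and 6.86 in AA1 to AA4 and 7.74, 7.71 and 7.50 in AS1, AS2 and AS3/4, a rise of 0.71 ± 0.12 (adjusted p = 0.0111). Dusp8 rose by 0.69 ± 0.15 at its brightest probe set and by no called amount at the other 2 (0.26 and 0.54). In these 4 phosphatases no AS sample fell within the AA range. Dusp16 (0.02), Dusp14 (0.04) and Dusp4 (0.05) did not pass, and nor did Dusp10 (0.18), Dusp5 and Spred3. Not all of these were flat. In Spred3 the lowest AS sample lay 0.11 log2 units above the highest AA sample, while in Dusp5 the groups overlapped slightly. Over all genes every AS sample lay above every AA sample in 8.96%.

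Spry4, a Sprouty protein that blocks growth factor signalling to Ras, was called at all of its 4 probe sets. At the brightest it read 8.66, 8.99, 9.15 and 9.11 in AA1 to AA4 and 9.86, 10.41 and 10.38 in AS1, AS2 and AS3/4, a rise of 1.24 ± 0.19 (adjusted p = 0.00806), and at the others it rose by 1.01, 1.51 and 1.31. Of the rest of that family, Spry1 (0.19) and Spry2 (0.07) did not pass. Errfi1, which inhibits the EGF receptor, read 12.22, 12.31, 13.16 and 12.45 in AA1 to AA4 and 13.58, 13.78 and 13.30 in AS1, AS2 and AS3/4; the groups did not overlap although AA3 came within 0.14 log2 units of AS3/4. It rose by 1.02 ± 0.23 (adjusted p = 0.0401) and by 1.37 ± 0.24 at its second probe set. Dusp2, Dusp6 and Spry4 passed in every fit without 1 sample, Dusp1 in 11 of 14, Dusp8 in 8 and Errfi1 in 6.

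Among the 18 brakes on NF-kB and cytokines, 1 rose. Zfp36 (tristetraprolin), which binds AU-rich elements and hastens the decay of cytokine mRNAs, read 11.38, 11.23, 10.91 and 10.80 in AA1 to AA4 and 12.60, 12.67 and 11.94 in AS1, AS2 and AS3/4, a rise of 1.32 ± 0.17 (adjusted p = 0.00288) in which AS3/4 was the lowest AS sample. Tnfaip3 (A20) had 0.62 ± 0.16 (adjusted p = 0.0637) and Nfkbia 0.24 ± 0.07 (adjusted p = 0.0923), and neither passed at the brightest probe set. Of the 5 probe sets of Nfkbia 2 were called higher, 1 of them by 0.49. Ppp1r15a (GADD34), which directs a phosphatase to the translation factor eIF2α and so restores protein synthesis after stress, read 9.14, 9.22, 9.28 and 9.15 in AA1 to AA4 and 10.15, 10.44 and 10.40 in AS1, AS2 and AS3/4. The AA samples spanned 0.14 log2 units, and the rise of 1.13 ± 0.09 had the lowest adjusted p of the named genes (0.000152). Rgs1, which ends G protein signalling in leukocytes, read 6.36, 6.32, 6.35 and 6.57 in AA1 to AA4 and 8.03, 7.83 and 6.98 in AS1, AS2 and AS3/4, a rise of 1.21 ± 0.19 (adjusted p = 0.00821) with AS3/4 again lowest. Plk2, a polo-like kinase induced by serum and by p53, read 10.66, 10.95, 11.13 and 10.82 in AA1 to AA4 and 11.73, 12.32 and 11.69 in AS1, AS2 and AS3/4, a rise of 1.02 ± 0.17 (adjusted p = 0.0124).

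Krüppel-like factors moved in both directions, with 1 of 12 higher and 2 lower (1 lower without AS3/4). Klf2, the flow-responsive factor of quiescent endothelium, read 12.04, 12.05, 12.30 and 11.99 in AA1 to AA4 and 13.01, 13.03 and 13.19 in AS1, AS2 and AS3/4. All AS samples lay at 13.01 or above, the rise was 0.98 ± 0.13 (adjusted p = 0.00307), and AS3/4 was here the highest. Klf10 and Klf11, both known as early targets of TGF-beta, fell. Klf10 read 9.66, 9.86, 9.27 and 9.66 in AA1 to AA4 and 8.84, 8.65 and 9.04 in AS1, AS2 and AS3/4, a difference of -0.77 ± 0.14 (adjusted p = 0.0195), and Klf11 read 10.43, 10.37, 10.20 and 10.40 in AA1 to AA4 and 10.07, 9.77 and 9.63 in AS1, AS2 and AS3/4, a difference of -0.52 ± 0.11 (adjusted p = 0.0302). Klf4, a barrier factor of epithelium and endothelium, missed the threshold at its brightest probe set (0.70 ± 0.17, adjusted p = 0.0504) and passed at the dimmer one (1.22 ± 0.19, adjusted p = 0.00896). The AA and AS samples of Klf4 did not overlap at either.

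Of the 32 endothelial genes Apold1 alone rose, and the list median was 0.02. The next genes lie outside that list or belong to others, and were picked after their values were seen. C2cd4b, an inflammation-induced nuclear protein of endothelial cells, read 8.25, 8.49, 8.32 and 8.17 in AA1 to AA4 and 9.32, 9.29 and 9.03 in AS1, AS2 and AS3/4, a rise of 0.90 ± 0.09 (adjusted p = 0.000336). S1pr1, the receptor for sphingosine 1-phosphate that tightens the endothelial barrier, rose by 0.44 ± 0.09 (adjusted p = 0.0367). C2cd4b passed in all fits without 1 sample, and S1pr1 in 8 of 14. Adamts1, a protease of the extracellular matrix that restrains angiogenesis, rose by 0.93 ± 0.20 (adjusted p = 0.0365), with AA3 and AS3/4 both at 11.33 to 2 decimals. Kcne4, an accessory subunit of potassium channels, rose by 0.93 ± 0.21 (adjusted p = 0.0393). Of 25 angiogenic and growth factors, Adamts1 was the 1 that rose and Hgf the 1 that fell; Vegfa had 0.05 and did not pass.

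Of the 108 genes that rose, 13 were members of the AP-1, Egr, MAP kinase feedback or NF-kB brake lists. These lists held 12, 18, 16 and 18 measured genes, and 0.594% of all 18193 genes rose. The lists were chosen with earlier results of these data known, so the count is no independent support. The 300 bases around the starts of the genes that rose or fell (250 before and 50 after) were searched on both strands for known binding sites. A promoter was held for 80 of the 108 genes that rose and 79 of the 96 that fell (RefSeq, GRCm38.p6). The cAMP response element TGACGTCA, the site of CREB and ATF factors, was in 9 of the 80 (11.25%) and in 0 of the 79, against 2.92% of the 14452 genes named on the array that had a promoter. Those 9 genes were Dusp1, Dusp8, Errfi1, Maff, Plk2, Ppp1r15a, Slc25a25, Myl6 and Gzmf. The AP-1 site TGANTCA was in 9 of the 80 (11.25%) and 4 of the 79 (5.06%), against 7.54%. The serum response element (CArG box) was in 3 and 2 genes, against 1.58%. For the NF-kB site only 1 exact sequence was searched, and variants of the site were not counted. That sequence was in 1 gene, Nfkb2, and 0, against 0.23%. These are counts without a test. Matches to TGACGTCA and TGANTCA cannot overlap. Csrnp1 held 1 match to the AP-1 site. For the early response, feedback and 15 most raised genes, the stretches around matches to the cAMP and serum response elements before the start are shown with the element in capitals: the former in the first 6 and the latter in Zfp36.
Ppp1r15a (chr7:45526269-45526320, minus strand): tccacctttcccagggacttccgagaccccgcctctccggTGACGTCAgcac
Plk2 (chr13:110394942-110395029, plus strand): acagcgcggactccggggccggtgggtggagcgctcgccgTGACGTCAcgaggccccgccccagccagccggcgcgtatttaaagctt
Errfi1 (chr4:150854979-150855066, plus strand): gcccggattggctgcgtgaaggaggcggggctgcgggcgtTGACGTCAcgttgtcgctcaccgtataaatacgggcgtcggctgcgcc
Maff (chr15:79347451-79347519, plus strand): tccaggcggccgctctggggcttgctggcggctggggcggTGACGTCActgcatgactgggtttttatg
Dusp1 (chr17:26508568-26508655, minus strand): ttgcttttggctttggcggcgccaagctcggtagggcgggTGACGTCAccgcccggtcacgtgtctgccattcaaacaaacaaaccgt
Dusp8 (chr7:142095300-142095431, minus strand): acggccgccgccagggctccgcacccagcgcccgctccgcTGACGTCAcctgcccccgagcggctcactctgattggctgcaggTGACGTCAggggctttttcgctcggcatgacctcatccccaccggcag
Zfp36 (chr7:28379237-28379326, minus strand): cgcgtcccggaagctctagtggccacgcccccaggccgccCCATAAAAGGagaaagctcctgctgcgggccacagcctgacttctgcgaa
Dusp8 held the element at 2 places. In the other 5 genes with TGACGTCA it occurred once, at 5 to 12 bases before the start in Ppp1r15a, 22 to 29 in Maff, 44 to 51 in Errfi1, 55 to 62 in Plk2 and 136 to 143 in Dusp1. A match describes the letters and does not show that a factor bound there.

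The remaining rises included secreted and barrier proteins of the airway. Scgb3a1, a secretoglobin of airway secretory cells, read 12.11, 11.41, 11.99 and 11.07 in AA1 to AA4 and 12.60, 12.64 and 12.36 in AS1, AS2 and AS3/4, a rise of 0.89 ± 0.19 (adjusted p = 0.0366); the AA samples spanned over 1 log2 unit and the gap from the highest of them to AS3/4 was 0.24. It was 1 of 17 genes of club cells and airway secretion that rose. Scgb1a1 itself had 0.01, but it lay between 14.92 and 14.98, close to the highest value in the data (15.11). Without AS3/4 the difference of Scgb3a1 was 0.98 and did not pass (adjusted p = 0.0633). Muc5ac, the gel-forming mucin of goblet cells, read 6.35, 6.24, 6.30 and 6.31 in AA1 to AA4 and 6.91, 6.72 and 6.78 in AS1, AS2 and AS3/4. The AA samples spanned 0.11 log2 units, and the rise of 0.50 ± 0.07 (adjusted p = 0.00368) passed in every fit without 1 sample. Muc5ac was dim, with a mean of 6.49 below the array medians (6.9 to 6.93), and no detection call was made. Retnla, a secreted product of type 2 inflammation, read 9.46, 9.48, 9.85 and 9.48 in AA1 to AA4 and 10.31, 10.31 and 10.06 in AS1, AS2 and AS3/4, a rise of 0.66 ± 0.14 (adjusted p = 0.0366). These were 2 of 22 genes of the type 2 response and mucus, of which 1 rose without AS3/4; the cytokine genes Il4 (0.19), Il5 (0.25) and Il13 (0.08) did not pass. Cldn3, a sealing claudin of tight junctions, was called at all of its 4 probe sets, by 0.51, 0.48, 0.42 and 0.56, and was the 1 of 19 claudin and junction genes that rose; at the brightest it read 10.84, 10.95, 11.09 and 10.98 in AA1 to AA4 and 11.38, 11.21 and 11.84 in AS1, AS2 and AS3/4. The groups did not overlap and AS3/4 was the highest; the rise (adjusted p = 0.0429) passed in 1 of 14 fits without 1 sample, and without AS3/4 the difference was 0.33 (adjusted p = 0.102).

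Further rises were single members of their lists. Stc1, a secreted glycoprotein induced by hypoxia, rose by 0.64 ± 0.14, and was 1 of 19 hypoxia and glycolysis genes. Dll1, a Notch ligand, rose by 0.45 ± 0.10, 1 of 29 Wnt and Notch genes. Slc39a2, a zinc importer, rose by 0.36 ± 0.07, 1 of 16 genes listed for alveolar macrophages, whose markers Chil3 (-0.04) and Marco (0.15) did not pass. Without AS3/4 none of these 3 passed, with adjusted p of 0.134 for Stc1, 0.127 for Dll1 and 0.0851 for Slc39a2. Cebpb and Cebpd, leucine zipper factors of the acute phase, rose by 0.66 ± 0.13 and 0.78 ± 0.18. In Cebpb the value of AS3/4 was the highest (12.61 against 11.93 and 12.14), and without AS3/4 its difference was 0.47 (adjusted p = 0.0622). Of the 14 glucocorticoid-induced genes, Errfi1 and Dusp1 rose (1 gene without AS3/4) and the median was 0.43, with Per1 at 0.90 ± 0.23 (adjusted p = 0.0585) and Fkbp5 at 0.26 ± 0.35. The neutrophil and monocyte chemokines had 0 of 14 past the threshold (median 0.28), and 3 without AS3/4: Cxcl2 read 5.08, 5.12, 5.75 and 5.16 in AA1 to AA4 and 7.63, 8.83 and 5.28 in AS1, AS2 and AS3/4, high in AS1 and AS2 and within the AA range in AS3/4.

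Sensors of smoke chemicals showed small differences. Among 8 measured targets of the aryl hydrocarbon receptor, 0 passed (median 0.18). Cyp1a1, which oxidises smoke hydrocarbons, read 8.81, 7.77, 8.22 and 8.53 in AA1 to AA4 and 8.78, 8.78 and 8.98 in AS1, AS2 and AS3/4, and AA1 at 8.81 lay above AS1 and AS2. Cyp1b1 had 0.42 ± 0.11 (adjusted p = 0.0677) without overlap. Among 15 NRF2 antioxidant genes 0 passed (median 0.06); Hmox1 had 0.25 ± 0.16, Nqo1 -0.19 ± 0.10 and Gclc -0.17 ± 0.10.

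Among the falls, Jchain, which joins immunoglobulins into polymers in plasma cells, read 9.69, 8.90, 10.44 and 9.34 in AA1 to AA4 and 8.52, 8.02 and 8.26 in AS1, AS2 and AS3/4. The groups did not overlap, AA ran over 1.5 log2 units, and the difference was -1.33 ± 0.30 (adjusted p = 0.0413). It was the 1 of 15 B and plasma cell genes that fell; Igha had -1.22 ± 0.37 (adjusted p = 0.1), Ighm -0.40 ± 0.29 and the B cell gene Cd79a 0.49 ± 0.21. Jchain passed in 3 of 14 fits without 1 sample. Slc16a4, of the monocarboxylate transporter family, read 7.58, 7.81, 7.68 and 7.89 in AA1 to AA4 and 6.71, 6.30 and 7.18 in AS1, AS2 and AS3/4, a difference of -1.01 ± 0.15 (adjusted p = 0.00577) that passed in all 14; its dimmer probe set had 0.10 and did not pass. Hgf, a growth factor that fibroblasts and endothelium supply to epithelium, read 8.29, 8.33, 8.27 and 8.15 in AA1 to AA4 and 7.82, 7.70 and 7.09 in AS1, AS2 and AS3/4, a difference of -0.72 ± 0.15 (adjusted p = 0.0343) at the brightest probe set against 0.05 and -0.17 at the others; without AS3/4, its lowest sample, it was -0.50 (adjusted p = 0.0898). Lrrn4, a leucine-rich membrane protein of the mesothelium, read 8.63, 8.87, 8.53 and 8.72 in AA1 to AA4 and 7.92, 8.19 and 8.16 in AS1, AS2 and AS3/4, a difference of -0.60 ± 0.10 (adjusted p = 0.00976), and was the 1 of 11 mesothelial genes that fell, against 3 without AS3/4. Msln (-0.21) and Wt1 (-0.12) did not pass.

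**Figure D3:**
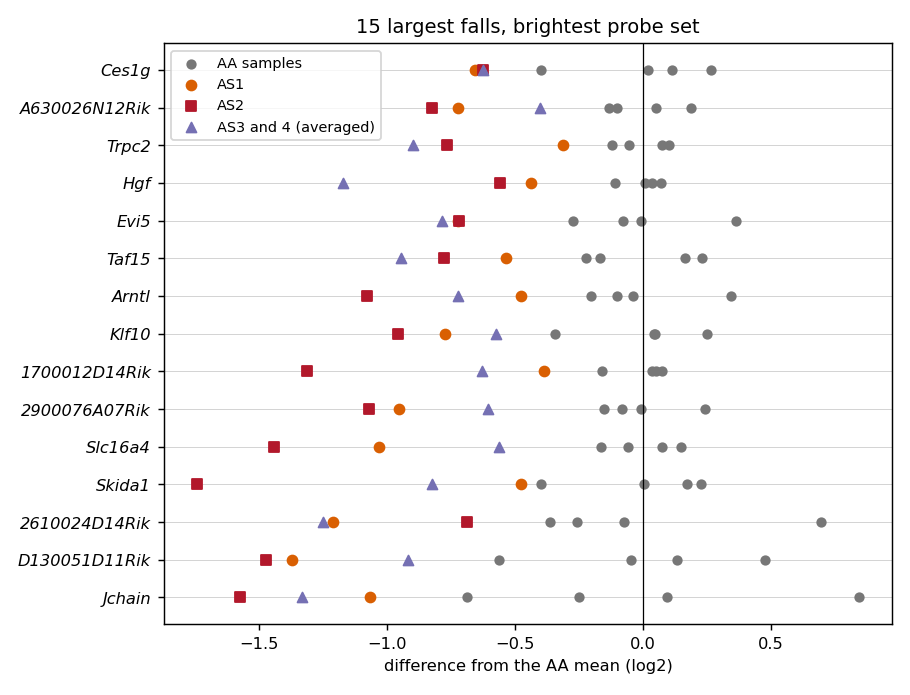
Difference of each sample from the AA mean (x axis, log2) for the 15 genes with the largest falls at their brightest probe set among those without overlap (y axis); grey points are AA samples, coloured symbols the AS samples. All AS samples lie below the AA samples of the same gene, with Ces1g and Evi5 nearly equal in the 3 AS samples and Hgf, Skida1 and 1700012D14Rik spread widely.

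Interferon-induced GTPases, which attack vacuoles of intracellular microbes, had the lowest median of all lists, -0.39, with 4 of 9 lower and none above 0. Over all genes 0.528% were lower and 9846 of 18193 were above 0. Gbp8 read 8.07, 8.13, 8.07 and 8.09 in AA1 to AA4 and 7.71, 7.54 and 7.30 in AS1, AS2 and AS3/4, with the AA samples within 0.06 of each other, and its difference was -0.57 ± 0.10 (adjusted p = 0.0155). Irgm2 read 10.15, 10.15, 9.95 and 10.12 in AA1 to AA4 and 9.80, 9.49 and 9.45 in AS1, AS2 and AS3/4, a difference of -0.52 ± 0.10 (adjusted p = 0.0206). Gbp7 (-0.42 ± 0.10, adjusted p = 0.0455) and Gbp6 (-0.39 ± 0.08, adjusted p = 0.0365) also fell, and the second probe set of Gbp6 fell by 0.44. Iigp1 (-0.49), Gbp3 (-0.33), Igtp (-0.31), Irgm1 (-0.22) and Gbp2 (-0.22) did not pass. AS samples lay below the AA range in 8 of the 9 genes, Iigp1 being the exception, against 7.6% of all genes. By sample the list medians were -0.23 in AS1, -0.44 in AS2 and -0.40 in AS3/4; without AS3/4 the median was -0.36 and 1 gene, Gbp8, passed. The type I interferon-stimulated genes had 0 of 16 past the threshold and a median of -0.02.

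Clock genes had 0 of 18 higher and 2 lower, against 0.594% and 0.528% over all genes. Arntl (Bmal1) and Clock, the paired activators of the circadian loop, fell. Arntl read 9.11, 8.56, 8.66 and 8.73 in AA1 to AA4 and 8.29, 7.68 and 8.04 in AS1, AS2 and AS3/4, a difference of -0.76 ± 0.17 (adjusted p = 0.0455); a dimmer probe set had -0.10. Clock read 10.22, 10.25, 10.20 and 10.28 in AA1 to AA4 and 9.98, 9.97 and 9.74 in AS1, AS2 and AS3/4, a difference of -0.34 ± 0.08 (adjusted p = 0.0423), with the other 3 probe sets between -0.27 and -0.06 and not past the threshold. Npas2, another partner of Arntl, had -0.84 ± 0.26 (adjusted p = 0.109), while the repressors Per1 (0.90), Per2 (0.44) and Bhlhe40 (0.58) and the output factor Dbp (0.73) had positive differences that did not pass. The hour of collection is not in the labels, so its part in these values was not tested. Without AS3/4, neither Arntl (0.11) nor Clock (0.128) passed (adjusted p).

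Of the 12 genes that fell in every fit without 1 sample, 3 act in RNA processing or are related to it: Prpf4b, Rsrp1 and Snrnp48. Prpf4b, a kinase of the spliceosome, read 10.49, 10.76, 10.46 and 10.60 in AA1 to AA4 and 10.04, 10.13 and 9.90 in AS1, AS2 and AS3/4, a difference of -0.55 ± 0.08 (adjusted p = 0.00713). Rsrp1, an arginine- and serine-rich protein, read 12.45, 12.69, 12.30 and 12.52 in AA1 to AA4 and 11.93, 11.99 and 11.74 in AS1, AS2 and AS3/4, a difference of -0.60 ± 0.10 (adjusted p = 0.0109). Snrnp48 of the minor spliceosome (-0.43 ± 0.07, adjusted p = 0.015) had the smallest of the 3 differences. Thoc2, of the complex that prepares mRNA for export (-0.44 ± 0.10, adjusted p = 0.0425), and Taf15, an RNA-binding protein (-0.75 ± 0.13, adjusted p = 0.0158), passed in 5 and 12 of 14. These genes were picked after their values were seen; of the 23 listed splicing factors, 0 passed, the median was -0.07 and 2 were above 0. Genes whose symbol is Zfp followed by a digit, most of them zinc finger repressors, were also grouped after their values were seen: 10 of 336 fell, 1 (Zfp36) rose, 88 were above 0 and the median was -0.11. Over all genes, 9846 of 18193 were above 0. Zfp267 (-0.62 ± 0.11), Zfp120 (-0.57 ± 0.11) and Zfp955b (-0.49 ± 0.11) had the largest falls, and 1 of the 336 fell when AS3/4 was left out.

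Other large falls had less known about them. Skida1 (-1.02 ± 0.24), Evi5, a regulator of vesicle traffic and cell division (-0.74 ± 0.13), the channel gene Trpc2 (-0.66 ± 0.13) and the carboxylesterase Ces1g (-0.64 ± 0.14) fell. Evi5 read 10.83, 10.84 and 10.77 in AS1, AS2 and AS3/4 against 11.28 to 11.92 in AA. Of the transcripts known only by clone names, D130051D11Rik (-1.25 ± 0.22), 2900076A07Rik (-0.88 ± 0.11) and A630026N12Rik (-0.65 ± 0.11) passed in all 14 fits without 1 sample, and 2610024D14Rik (-1.05 ± 0.24) and 1700012D14Rik (-0.78 ± 0.15) in 4 and 11. Kantr read 8.20, 8.40, 8.20 and 8.30 in AA1 to AA4 and 7.74, 7.66 and 7.74 in AS1, AS2 and AS3/4, a difference of -0.56 ± 0.08 (adjusted p = 0.00535), with the AS samples within 0.08 of each other. Rad52, a protein of DNA repair by recombination (-0.62 ± 0.11, adjusted p = 0.0158), passed in all 14. Of the 433 lower probe sets 166 (38.3%) carried no single gene symbol, as did 65 of the 266 higher ones (24.4%).

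**Figure D4:**
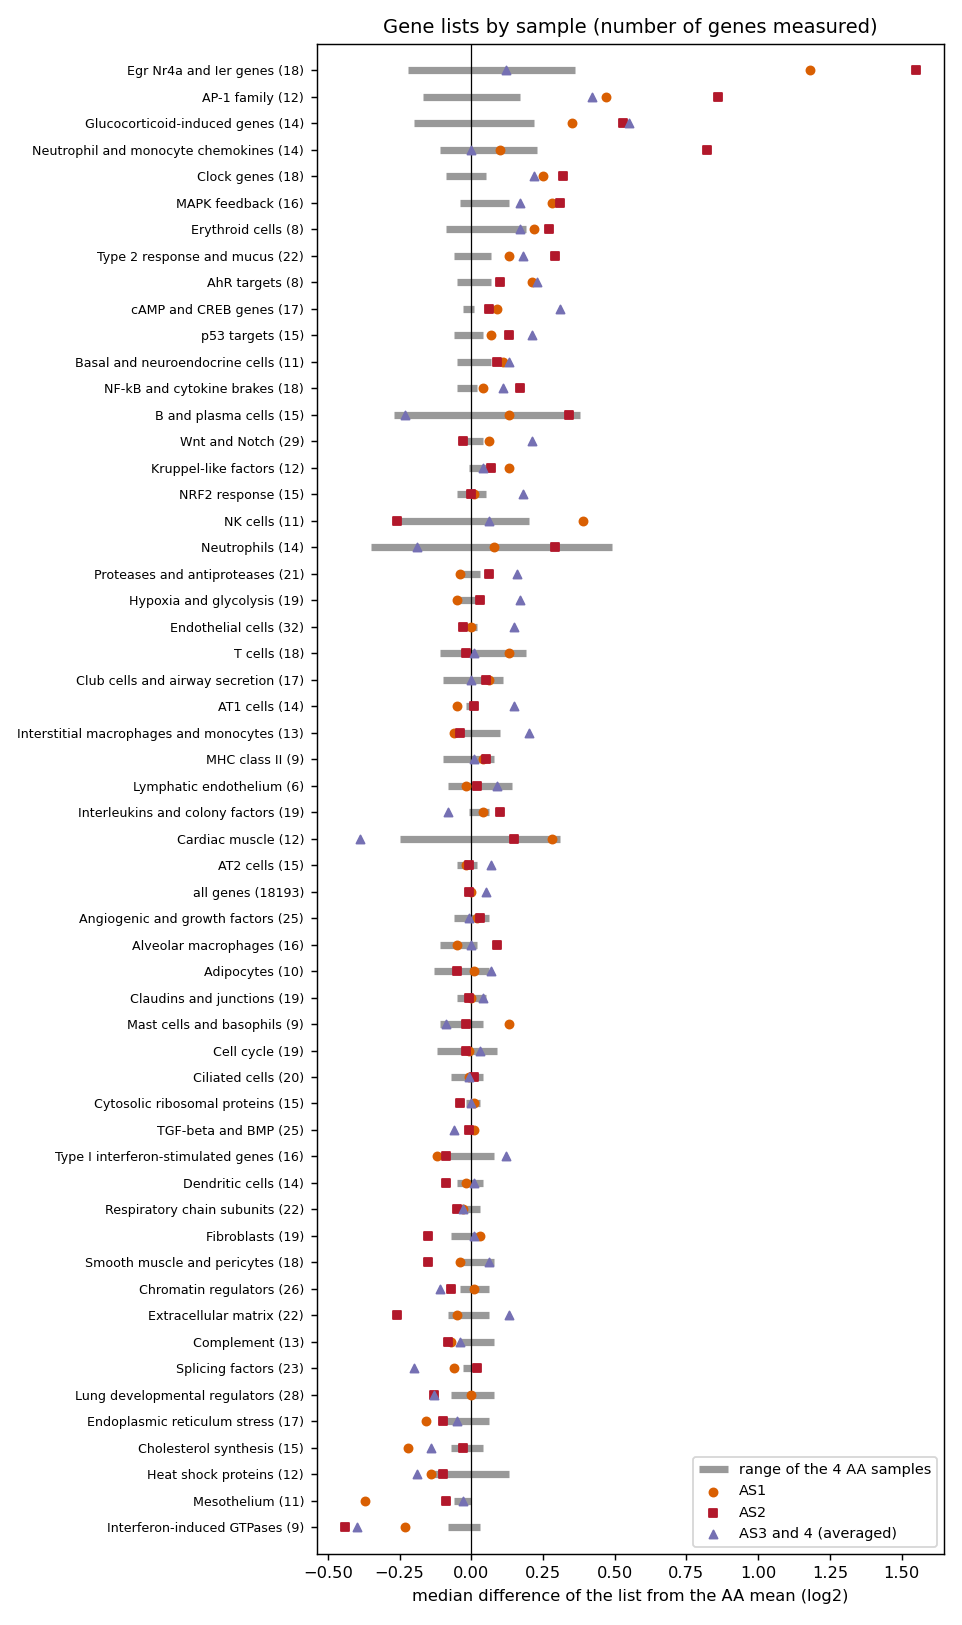
Median difference from the AA mean (x axis, log2) over the measured genes of each list (y axis, number measured in brackets), for each AS sample; grey bars span the 4 AA samples. The Egr, Nr4a and Ier list reaches 1.18 and 1.55 in AS1 and AS2 and 0.12 in the averaged AS3 and 4, and the interferon-induced GTPases lie below the AA range in every AS sample.

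Markers of cell types gave few calls. None of the genes listed for alveolar type 1 cells (14 measured), alveolar type 2 cells (15), ciliated cells (20), neutrophils (14), T cells (18), natural killer cells (11), dendritic cells (14), fibroblasts (19) or smooth muscle and pericytes (18) passed, and their medians lay between -0.08 and 0.08; without AS3/4 the neutrophil median was 0.26 and 1 T cell gene passed. Erythroid genes had 0 of 8 past the threshold with a median of 0.24 and all 8 above 0, and basal and neuroendocrine genes 0 of 11 with a median of 0.14. Over all genes, 9846 of 18193 were above 0. The median was 0.15 in the B and plasma cell list and -0.19 in the mesothelial list. Heart muscle genes had 0 of 12 past the threshold and a median of 0.00, which was 0.23 without AS3/4. They were lowest in AS3/4: Myh6 read 12.17 in AS1, 11.95 in AS2 and 11.11 in AS3/4 against 11.51 to 12.11 in AA; the part of heart tissue in the results was not tested. Heat shock proteins had 0 of 12 past the threshold, with a median of -0.14.

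The brightest probe set of a gene did not always follow a called one. Of the 186 genes with at least 1 probe set called higher, the brightest rose in 108 (58.1%). In 23 more it had the same sign with an unadjusted p under 0.05, in 29 the same sign with a larger p, in 25 the opposite sign, and in 1, Trp53bp1, it fell. Of the 251 genes with a probe set called lower, the brightest fell in 96 (38.2%), had the same sign with an unadjusted p under 0.05 in 35, the same sign with a larger p in 96 and the opposite sign in 24. Genes with only 1 probe set cannot disagree, and they were 61 of the 186 and 31 of the 251. Among genes with several, the brightest passed in 47 of 125 and 65 of 220. Where it did not agree, the called and the brightest probe set had median differences of 0.40 and 0.08 in the 78 higher genes and -0.56 and -0.11 in the 155 lower ones. These genes were taken because the brightest did not pass in the called direction, so this contrast was largely fixed by the choice. The difference between the directions was not tested.

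**Figure D5:**
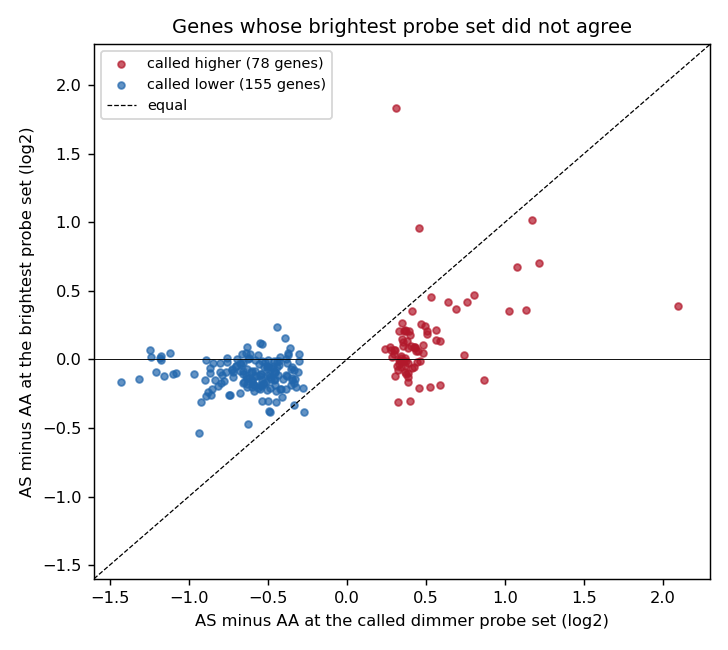
Difference between AS and AA (log2) at a called dimmer probe set (x axis) and at the brightest probe set of the same gene (y axis), 1 point per gene; red are 78 genes called higher and blue 155 called lower, and the dashed line marks equal values. Most points lie near 0 on the y axis, with medians of 0.08 and -0.11, while a few red points lie near or above the line. The genes were taken because the brightest did not pass in the called direction, which largely fixed this pattern.

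Among rises at a dimmer probe set, the largest was that of Adamts9, a matrix protease. The dimmer probe set read 8.02, 8.25, 8.51 and 8.23 in AA1 to AA4 and 10.38, 10.93 and 9.73 in AS1, AS2 and AS3/4, a rise of 2.09 ± 0.21, while the brightest read 10.06, 9.59, 11.45 and 9.70 in AA1 to AA4 and 10.12, 10.95 and 10.69 in AS1, AS2 and AS3/4 (0.39 ± 0.38, adjusted p = 0.582) and the remaining probe set had -0.19. Btg2, an antiproliferative early gene, rose by 1.17 ± 0.22 at the dimmer probe set and had 1.01 ± 0.26 (adjusted p = 0.0616) at the brightest. Bcl2l1, which protects from apoptosis, rose by 1.03 ± 0.15 at a probe set of mean 4.81, and its brightest had 0.36 ± 0.17 (adjusted p = 0.245). Mt1, a metallothionein, rose by 1.07 ± 0.23 and had 0.67 ± 0.17 (adjusted p = 0.0579) at the brightest. Usp2, a deubiquitinase under clock control, rose by 0.80 ± 0.11 against 0.47 ± 0.12 (adjusted p = 0.0635), and the kinase Pim3 by 0.76 ± 0.13 against 0.42 ± 0.12 (adjusted p = 0.09). Cdkl4 rose by 0.87 ± 0.17 and its brightest had -0.15. In 7 of these 8 genes, Klf4 included, the brightest had the same sign, Cdkl4 being the exception.

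The falls at dimmer probe sets were followed by small differences at the brightest. Tcf21, a regulator of lung fibroblasts, read 8.18, 7.62, 7.91 and 7.63 in AA1 to AA4 and 6.58, 6.10 and 6.53 in AS1, AS2 and AS3/4 at the dimmer probe set, a difference of -1.43 ± 0.15, and 12.47, 12.36, 12.28 and 12.29 in AA1 to AA4 and 12.18, 12.20 and 12.19 in AS1, AS2 and AS3/4 at its brightest, a difference of -0.16 ± 0.08 (adjusted p = 0.27). Col1a2, a chain of type I collagen, had -1.25 ± 0.21 at 1 probe set, and -0.11 and 0.07 at its other 2. Nrp1, a co-receptor for semaphorins and VEGF, had -1.18 ± 0.22 at 1 probe set, and its other 3 lay between -0.07 and 0.06. Calcrl, the receptor of adrenomedullin, had -1.24 ± 0.27 at 1 probe set and 0.01 and 0.02 at the others. Meis1 had -1.31 ± 0.16 against -0.14, Klhl24 -1.21 ± 0.20 against -0.09, Usp8 -1.19 ± 0.19 against 0.01 and Peli1 -1.18 ± 0.27 against 0.02. These 8 genes were chosen because the brightest did not pass.

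The same adult exposure was given to mice that had met smoke before birth. SS minus SA shares no sample with AS minus AA, but both took their spread from the same fit. The counts of genes called in both are therefore not independent. Of the 108 genes that rose in AS against AA, 85 had the same sign in SS against SA, 13 rose there too and 1 fell; the medians were 0.39 and 0.14. Over all genes 47.6% were above 0 in SS against SA, 0.874% rose and 1.04% fell. Of the 96 that fell, 84 had the same sign and 10 fell there too, with medians of -0.42 and -0.19. The test of the difference itself passed for 59 probe sets (0.131%), 37 of them with the higher value in SS against SA. At the brightest it passed for 21 genes (0.115%), 6 of them with the higher value in SS against SA. Among the 108 and 96 genes it passed for 6 and 1. Ppp1r15a had 1.13 in AS against AA and 0.16 in SS against SA, a difference of -0.97 ± 0.13 (adjusted p = 0.00822). Klf2 had 0.98 and -0.07 (difference -1.05 ± 0.18, adjusted p = 0.0399), Plk2 1.02 and -0.39 (-1.42 ± 0.24, 0.0399), and C2cd4b 0.90 and -0.08 (-0.98 ± 0.13, 0.00737). Dusp6 had 0.48 and -0.18 (-0.66 ± 0.11, 0.0325), and Hlx, a homeobox factor of mesenchyme and blood, 0.57 and -0.84 (-1.41 ± 0.19, 0.00822). Klf10, which fell in AS, had 0.54 in SS against SA (1.31 ± 0.20, 0.017).

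Some of the other rises had the same direction after both prenatal exposures, and the test of the difference did not pass. Apold1 had 3.18 and 2.19 (adjusted p = 0.612 for the difference), Rasd1 1.33 and 1.09 (0.82), Errfi1 1.02 and 1.28 (0.855) and Retnla 0.66 and 1.05 (0.603). The interferon-induced GTPases had a median of -0.33 in SS against SA, with 4 of 9 lower, and Arntl had -0.78. The early genes Ier2 (-0.04), Junb (0.07) and Rgs1 (0.01) were near 0 in SS against SA, but the difference from AS against AA did not pass (adjusted p = 0.102, 0.172 and 0.109). The number of probe sets past the test of the difference was 37 without AA2, 38 without AA3, 115 without AS1, 31 without AS2, 105 without AS3/4, 90 without SA1, 39 without SA2, 33 without SA3, 26 without SS1 and SS2, 36 without SS3 and 23 without SS4.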

How the data were processed

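Whole left lung RNA was measured on Affymetrix mouse arrays, 1 array per animal per the labels. The authors deposited log2 values, 1 per probe set and array, with nearly equal array medians (6.9 to 6.93). The limma package is named, without a version, per the submitters' processing notes. Details of background correction, normalization, summary method and genome build were not given in the sources used here. No detection call was made, and the number of arrays limits the precision.

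Of 45101 probe sets, 64 controls were left out and 45037 tested; 34945 had 1 gene symbol in the platform annotation, 932 several and 9160 none. Arrays AS 3 and 4 differed by a ratio of 1.35 between the most and least variable bright probe sets, and SS 1 and 2 by 1.24, against 2.84 to 5.96 in the other 22 pairs. Each of these pairs was averaged. A mean per group was fitted to all 14 samples by lmFit, contrasts.fit and eBayes (limma 3.58.1, R 4.3.3), leaving 10 residual degrees of freedom. Tests were two-sided, and the Benjamini-Hochberg adjustment covered the 45037 probe sets of a comparison; every adjusted p in the text comes from limma. A value after ± is the fitted standard error, or an SD where that is written. The script was tested on simulated data.

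Named genes were the 15 largest rises and 15 largest falls at the brightest probe set among genes past the threshold without overlap between groups, genes with at least 3 probe sets all past it, the 8 largest changes per direction where a dimmer probe set passed without overlap and the brightest did not, list members past the threshold with the largest others, and genes past the test of the difference between the 2 adult effects. Other named genes are list members or genes past the threshold, chosen after their values were seen. The members and gene lists were chosen with earlier results of these data known, so no list is independent support. Lists were described by counts and medians. Of 18 same-numbered pairs of deviations from group means, 3 correlated above 0.1 (range -0.157 to 0.251). A pair with unlike numbers, AS1 and SA2, reached 0.291. AS3/4 was coded as replicate 3 and the averaged SS pair as replicate 1. AS3/4 had -0.155, 0.077 and 0.042 with AA3, SA3 and SS3, and 0.192, 0.244 and -0.101 with AA4, SA4 and SS4. With this coding the check cannot tell whether replicate numbers pair the samples. Alternatives were other normalizations, array weights, separate or single arrays of the averaged pairs, a filter on dim probe sets, 1 probe set per gene, fewer groups in the fit, leaving out each sample, and a replicate block; leaving out each SA and SS sample was chosen after seeing the data.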

Additional observations from a re-analysis of the deposited data

Results flagged for a closer look

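Values were looked at for 87 probe sets of the named genes. In the AA group 4 of them had 1 sample far from the other 3: Rgs1 was highest in AA4 (6.57), 1700012D14Rik lowest in AA4 (7.1), Irgm2 lowest in AA3 (9.95) and Retnla highest in AA3 (9.85). Chance flags about 1 in 20 groups.

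The adult smoke effect differed by the exposure before birth, with the test of the difference past the threshold (limma, adjusted p under 0.05), at 27 of these probe sets. Genes past this test at the brightest probe set, and those with the lowest p-values in it, had been put among the named genes for that reason, so the number describes the choice. The values are (SS minus SA) minus (AS minus AA) on the log2 scale. At the brightest probe set they were -0.97 for Ppp1r15a, -1.42 for Plk2, -1.05 for Klf2, 1.31 for Klf10, -0.66 for Dusp6, -0.98 for C2cd4b and -1.41 for Hlx, genes that also passed in AS against AA. They were 1.68 for Creb5, -0.85 for Zfp608, -0.88 for Nrros, -0.48 for Cdkn2c, 0.74 for Dusp16, 0.82 for Ampd3, -1.03 for Hhex, -0.91 for Hs3st1, 0.87 for Fkbp14, -0.7 for Stk4, -0.94 for Tox3, -1.11 for Cxcr4, 0.78 for Plxna2 and -1.2 for Prdm8, which did not pass in AS against AA. At dimmer probe sets they were -2.35 for Adamts9, 1.36 for Tcf21, 1.32 for Hecw2, 0.93 for Hnrnpr, 0.87 for Mtcp1 and 1.12 for Hdac2, all past the threshold in AS against AA at that probe set.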

How the results depend on the processing

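The direction of all 67 named values that were refitted was kept under every alternative that gave a value (6 were too dim for the filter on means above 6). This was largely fixed by the choice of genes. Where AA and AS samples did not overlap, leaving out or weighting samples could not turn the direction. Leaving out an SA or SS sample did not alter the difference between AS and AA. Calls were lost for 55 in the fit of AA and AS alone, 30 without AA2, 27 without AS3/4, and 0 to 24 under each other setting. With all 16 arrays as separate samples, the probe sets called in AS against AA numbered 3565, genes at the brightest 1277, list members 104 and probe sets past the test of the difference 330. With only AA and AS they were 47, 12 and 6 for the first 3. Testing 1 probe set per gene gave 179 calls. For the difference, quantile normalization gave 89 and array weights 205. Leaving out 1 sample gave 185 to 905 probe sets, 47 to 300 genes, 20 (without AA2) to 40 (without AS1) list members against 37 with all samples, and 23 to 115 for the difference. The probe sets called in AS against AA were 381 without AA1, 185 without AA2, 447 without AA4, 381 without AS3/4, 399 without SS1 and SS2 and 449 without SS3. List members were also 21 without AA1, 22 without AA4 and 23 without SS1 and SS2. The share of calls that were higher, 38.1%, was 51.6% with array weights and 53.6% with 1 probe set per gene.

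The replicate numbers were shared between groups but did not pair the samples; with the replicate block 826 probe sets, 199 genes, 36 list members and 52 differences passed, and 10 of the 67 named values lost their call. An unadjusted p under 0.05 was reached by 9154 probe sets, where 2252 would be expected if none differed, and 699 passed the adjustment. Dim probe sets were read without a detection call.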

Other observations

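Among brightest probe sets with a mean above 8, the largest differences between AS3/4 and the mean of AS1 and AS2 ran in both directions. Lower in AS3/4 were, among others, Egr3, Egr2, Fos, Nr4a2, Egr1, Ccn1, Ptgs2, Nr4a3, Nr4a1, Btg2 and Atf3. Ptgs2, the inducible cyclooxygenase, read 10.76 in AS1, 11.75 in AS2 and 9.71 in AS3/4, against 9.26 to 10.82 in AA. Ccn1, a matricellular protein, read 13.21, 13.70 and 11.77 against 11.72 to 12.42. Higher in AS3/4 were, among others, Edn1, Cd99, Sorbs3, Bcam, Tle5, Capn1, Cebpa, Eln and Cdkn1a. Edn1, the vasoconstrictor endothelin 1, read 9.86, 8.69 and 11.004 against 9.18 to 9.71 in AA. Cd99, an adhesion protein, read 9.93, 10.16 and 11.45 against 10.02 to 10.25. None of these genes passed the threshold at the brightest probe set.

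The probe sets with a mean above 12 on the log2 scale gave 11 higher and 1 lower call among 1051. Those between 10 and 12 gave 25 and 25 among 4615. Those with a mean between 8 and 10 gave 47 higher and 180 lower among 10543, and those between 6 and 8 gave 91 and 177 among 11894. Those under 6 gave 92 and 50 among 16934. The share of calls that were lower was not tested against the mean.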
